A study of Mus musculus with 4 samples.

Results

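Cyclin G1 knockout mouse embryonic fibroblasts (G1KO MEFs) were compared with wild-type MEFs (WT) on 2 of the 4 arrays of the series, chosen because their titles name the CycG1 knockout and its dye swap. MEFs are mixed connective-tissue cultures prepared from mid-gestation embryos. The G1KO culture was CycG1-/-, and the WT culture was CycG1+/+. Both came from C57BL/6J mice and were in logarithmic growth in DMEM with fetal bovine serum when total RNA was taken. In the knockout allele all coding exons of Ccng1 had been exchanged for a PGK-neo cassette, a drug-resistance gene under a ubiquitous promoter. The other 2 arrays hold CycG2-/- MEFs and their own CycG2+/+ WT, and the WT of that pair serves below as a second WT culture of the same strain. Each genotype was 1 culture. The swap of the dyes is technical, so no p-value is given, and every ± is the SD between the 2 arrays.

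Cyclin G1 is an atypical cyclin. It is a direct transcriptional target of p53, the DNA damage responsive transcription factor, and it binds B' subunits of the phosphatase PP2A, through which it acts on Mdm2, the ligase that degrades p53. Fibroblasts keep part of the positional identity of the region they came from, read in Hox and other homeobox genes, and a MEF culture can also hold cells of other origin, such as the mesothelium that lines the body cavities.

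Each array gave a log2 ratio of G1KO over WT per gene, at the brightest of its tested probes, so that a value of 1 is a 2-fold higher level in G1KO. A probe was tested where at least 1 genotype was well above background on both arrays, and a gene or probe was called where the ratio was at least 1 in size toward the same genotype on each array. Of 25531 probes tested 1479 were called, which is 5.79%, with 509 higher (1.99%) and 970 lower (3.80%). Of 16586 genes tested 6.96% were called, with 408 higher (2.46%) and 747 lower (4.50%), and the median over all genes was -0.003. These shares are the background for every count below. A gene bright in 1 culture alone enters through that culture, and genes dim in both cultures are left out of the list medians. Of 470 called genes with more than 1 tested probe, 287 had a probe that was not called the same way. Values of other probes are given below for some genes only. The SD between arrays was 0.131 pooled over probes, r between the arrays was 0.952 across probes, and 0 probes passed 2-fold toward opposite genotypes. Among the called genes the largest changes were mostly falls, since 36 fell and 5 rose by at least 4 on the log2 scale. Signals given below are normalised and include the added offset of 50, so that values under about 100 lie close to background.

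**Figure D1:**
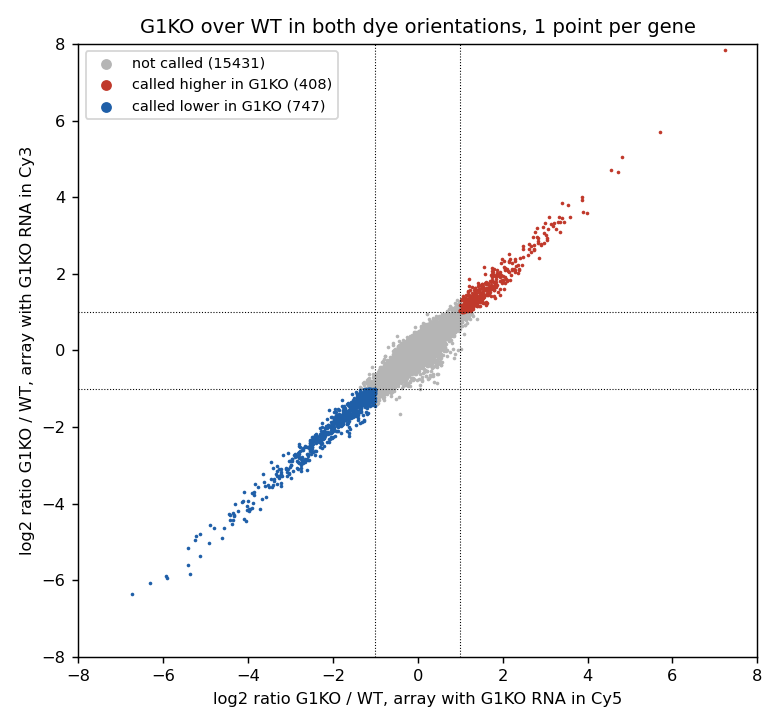
Log2 ratio of G1KO over WT with G1KO labelled with Cy5 (horizontal) and with Cy3 (vertical), 1 point per gene. The 408 genes called higher and 747 called lower lie beyond the dotted lines at 1 and -1 on both axes, and more points lie far out on the lower side.

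Ccng1 was checked first. Its representative probe, at chr11:40594334-40594393 on the minus strand (build mm8), read 7684 and 8335 in WT and 256 and 257 in G1KO, a log2 ratio of -4.96 ± 0.08. A second probe of Ccng1 gave -6.67 ± 0.13. Both remained above background in G1KO. Ccng2, the gene of the paralogue cyclin G2, was not called, with signals of 1558 and 1842 in WT and 2215 and 1922 in G1KO (0.28 ± 0.32).

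Sex-linked transcripts differed between the cultures. Xist, the RNA that coats the inactive X chromosome, read 111 and 71.3 in WT and 16710 and 16320 in G1KO. Ddx3y, a Y-linked helicase gene, read 2138 and 2569 in WT and 60.8 and 92.5 in G1KO. The paper attributes the higher Xist of G1KO MEFs to their female origin, and the WT culture expressed the Y-linked gene. Genotype, the embryo and its sex therefore vary together here, and their parts in any difference below cannot be told apart. The deposited records also carry, outside the sample labels, a population doubling level that differs between WT and G1KO, and its part in the differences was not tested.

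Fibroblast identity was checked with 17 markers, and all 17 were tested. Fbln2, a matrix protein gene of fibroblasts, read 65620 and 85780 in WT and 74260 and 76500 in G1KO. Col1a1, the main collagen chain of connective tissue, read 106500 and 102300 in WT and 72980 and 69810 in G1KO. Of the 17, 14 were not called, and the share called was 17.6%, against 6.96% of all genes. The exceptions were Dcn, which fell, and Pdgfrb and Lum, which rose. The summed signal of the fibroblast markers was 777350 and 834192 in WT and 665098 and 525847 in G1KO. Markers of blood and vessel cells were sparse, since 8 of 18 leukocyte, 6 of 17 endothelial and 2 of 11 red cell markers were tested. The defining markers Ptprc, Pecam1, Cdh5 and the globin gene Hba-a1 were not well above background in either culture. The summed signal of the leukocyte markers was 2518 and 2794 in WT and 1098 and 1208 in G1KO, and that of the endothelial markers was 1580 and 1638 in WT and 3596 and 3791 in G1KO. Within these sums Ms4a3, a gene of myeloid precursors, fell (-3.66 ± 0.14), Emcn, an endothelial sialomucin gene, fell (-2.65 ± 0.08), and Flt1, a receptor for VEGF that other cells also use, rose (3.27 ± 0.09). The part of such cells in the results below was not tested.

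The second WT culture sets a scale for these changes. Between the WT of the G1KO pair and the WT of the G2KO pair, 2870 of 26026 probes (11.0%) passed 2-fold in both dyes, against 5.79% of probes between G1KO and its own WT. The first of these contrasts runs between arrays and the second within an array, and both use the same WT culture. The level in the second WT is therefore given beside some of the genes below, and none of these contrasts has a biological replicate.

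Most genes of the mesothelium fell. The mesothelium is the epithelial-like sheet that covers the heart, lung and abdominal organs, and its cells combine keratins and uroplakins with mesodermal transcription factors. All 24 listed markers were tested, 17 fell, 2 rose, and the median log2 ratio was -2.08, against -0.003 over all genes. The summed signal of the list was 505730 and 447206 in WT, 106205 and 98144 in G1KO, and 53942 and 46346 in the second WT. In a bulk culture a smaller number of such cells and less RNA per cell cannot be told apart.

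Among surface and secreted proteins of this list 9 of 12 fell. Gpm6a, a membrane glycoprotein gene at chr8:56558884-56558943, read 15510 and 14040 in WT and 196 and 209 in G1KO (-6.19 ± 0.17). Lrrn4, a leucine-rich repeat protein gene, read 14640 and 15040 in WT and 240 and 252 in G1KO (-5.92 ± 0.02). Upk1b, a uroplakin gene, read 32920 and 31810 in WT and 776 and 654 in G1KO (-5.50 ± 0.14). The cultures were far apart on both arrays for all 3 genes, and yet each stayed above background in G1KO. In the second WT they read between 58.6 and 68.4, below the background flag. Msln, the gene of mesothelin, read 145100 and 109300 in WT and was still bright in G1KO at 20930 and 15870. Muc16, a membrane mucin gene, had 2 probes that disagreed, since the brighter gave -4.46 ± 0.10 and the other -0.34.

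Of the transcription factors of the list 4 of 5 fell. Bnc1, a zinc finger factor of mesothelium and keratinocytes, read 4012 and 4176 in WT and 437 and 431 in G1KO (-3.24 ± 0.05). Wt1, the Wilms tumour factor that marks mesothelium and kidney precursors, read 11220 and 10650 in WT and 1450 and 1211 in G1KO (-3.04 ± 0.13). Tbx18, a T-box factor of the epicardium and somites, fell by 2.07 on the log2 scale, and Gata6, a factor of visceral mesoderm and endoderm, fell by 1.49. Wt1 read 60.9 and 60.7 in the second WT, so that G1KO lay between both WT cultures. Tbx18 did not follow that order, since the second WT read 2061 and 2177 against 2289 and 2386 in the WT of the pair.

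The keratins of the list split. Krt7, Krt14 and Krt8 fell (-2.87 ± 0.02, -2.09 ± 0.08 and -1.14). Krt18, a simple-epithelium keratin, read 32490 and 32690 in WT and 30620 and 31240 in G1KO and was not called. Krt19, another simple-epithelium keratin, rose from 703 and 834 in WT to 5530 and 5869 in G1KO (2.90 ± 0.11).

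Retinaldehyde dehydrogenases also moved in opposite directions. These enzymes make retinoic acid, a signal that patterns the trunk and limbs. Aldh1a1 read 67910 and 66600 in WT and 1639 and 1171 in G1KO (-5.60 ± 0.32). Aldh1a2, the main embryonic enzyme, read 126 and 106 in WT and 885 and 831 in G1KO (2.89 ± 0.11). Over the retinoid genes, 4 of 25 fell and 2 rose, with a median of -0.11. Crabp1, a retinoic acid binding protein gene of embryonic mesenchyme, rose from 311 and 368 to 3166 and 3153 (3.22 ± 0.18), and was higher still in the second WT (27490 and 23320). Cyp26b1, which breaks retinoic acid down, and Stra6, a receptor for the retinol carrier, fell (-1.70 ± 0.35 and -1.17 ± 0.10).

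The upstream sequences of 4 of these genes are printed because they show the range of CpG content among start sites of the list, from 3 genes that fell with few CpG to the enzyme that rose. Each line holds the 100 bases before the first RefSeq start listed for the gene (build GRCm38.p6, plus strand), 5′ to 3′, with CpG dinucleotides in capitals.
Gpm6a, chr8:54779334-54779433: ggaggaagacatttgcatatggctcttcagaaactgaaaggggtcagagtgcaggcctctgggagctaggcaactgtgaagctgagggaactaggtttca
Upk3b, chr5:136038396-136038495: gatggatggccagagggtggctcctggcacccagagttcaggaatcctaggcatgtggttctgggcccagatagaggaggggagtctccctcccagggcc
Aldh1a1, chr19:20492483-20492582: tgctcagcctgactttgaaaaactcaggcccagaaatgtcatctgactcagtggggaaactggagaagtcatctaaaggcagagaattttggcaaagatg
Aldh1a2, chr9:71215689-71215788: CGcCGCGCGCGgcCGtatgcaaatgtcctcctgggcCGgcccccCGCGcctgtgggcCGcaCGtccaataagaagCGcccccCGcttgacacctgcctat

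In the 250 bases before that first listed start, Gpm6a held 1 CpG, Upk3b 2, Aldh1a1 3 and Aldh1a2 40. Other starts of a gene were not examined, nor was which start these cultures used. Upk3b is the uroplakin gene that read 36250 and 32890 in WT and 2189 and 1503 in G1KO. Few CpG did not go with every fall, since Bnc1 held 39, Rspo1 22, Krt7 16 and Tbx18 15. Of the 24 mesothelial markers 16 had a sequence, with a median of 7.5 CpG. The median was 15 over 10599 tested genes with a sequence, 12 over 514 called lower, 13 over 267 called higher and 16 over 9818 not called. The spread within each set was wide, with quartiles of 5 and 20 among the genes called lower and of 9 and 23 among those not called, and no test was made of this difference.

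**Figure D2:**
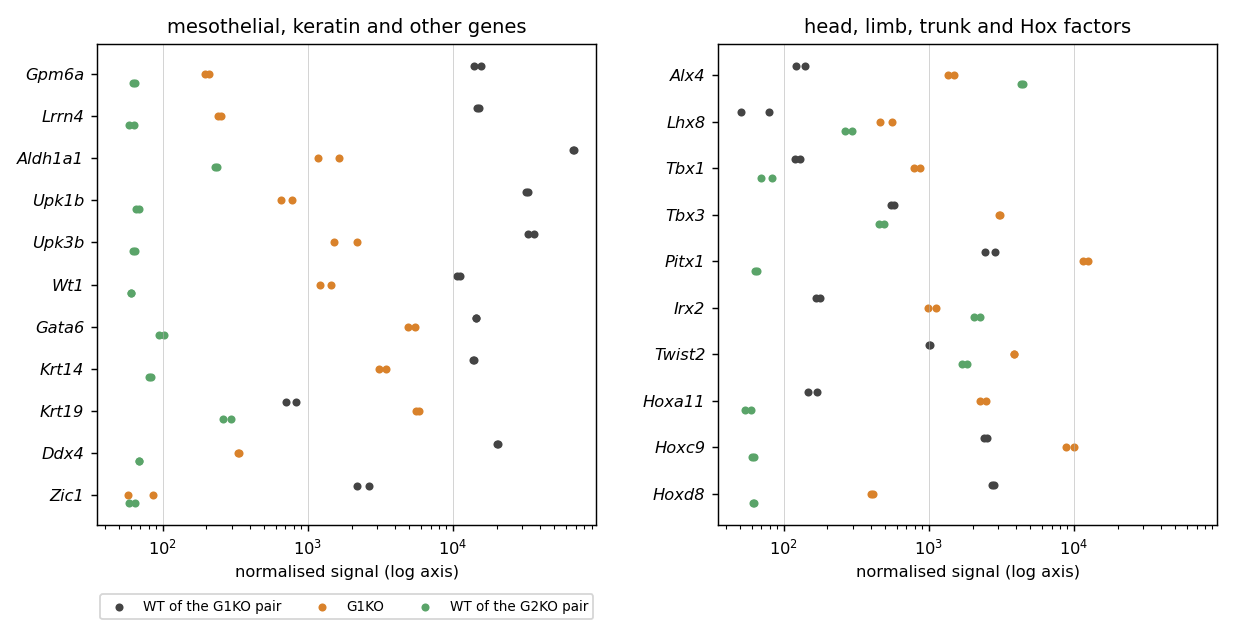
Normalised signal (log axis) of lineage genes in the WT of the G1KO pair, in G1KO and in the WT of the G2KO pair, with 1 point per array. Gpm6a, Wt1 and most mesothelial genes are highest in the WT of the G1KO pair and lowest in the other WT, whereas Alx4 and Irx2 are lowest in the WT of the G1KO pair.

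Genes of stratified and junctional epithelium gave falls and no rise. Of 33 listed genes 15 were tested, 7 fell and 0 rose, with a median of -0.92. That median ranged from -1.92 to -0.03 over the processing settings. Of 17 junction genes only 6 were tested and 2 fell. The junction genes Epcam, Cldn4, Cldn7 and Ocln were not among those tested. Mal2, a gene of apical membrane transport, read 2010 and 2162 in WT and 92.5 and 112 in G1KO (-4.36 ± 0.12). Scel, a precursor of the cornified envelope, read 1630 and 1820 in WT and 82.5 and 113 in G1KO (-4.16 ± 0.21). Ppl and Evpl, which encode the envelope plakins, fell (-2.34 ± 0.01 and -1.89 ± 0.10), with weaker second probes (-0.57 and -0.95). Esrp2, an epithelial splicing factor gene, fell (-1.99 ± 0.02). Cdh1, the gene of E-cadherin and the defining epithelial marker here, was dim in both cultures, at 147 and 146 in WT and 112 and 122 in G1KO, and was not called.

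Germ cell and pluripotency genes gave 4 falls and 1 rise among 16 tested of 49 listed. Ddx4, the germ cell helicase gene known as vasa, read 20140 and 20430 in WT and 335 and 330 in G1KO (-5.93 ± 0.03), against 68.2 and 68.4 in the second WT. Rpl39l, a ribosomal protein gene used in the male germ line, fell (-4.73 ± 0.11 at one probe, -0.91 at the other). Tdrd1, a gene of the piRNA pathway, fell by 2.08. Klf4, a reprogramming factor gene that fibroblasts also use, read 29170 and 28060 in WT and 13190 and 13690 in G1KO. Rhox5, an X-linked homeobox gene, rose (1.26 ± 0.06). Most germ cell genes were not well above background in either culture.

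Factors of head and limb mesenchyme rose more often than they fell. Of 43 listed 29 were tested, 11 rose and 1 fell, with a median of 0.62. That median depended on the processing and ranged from 0.09 to 0.73 over the settings. Alx4, a limb and skull homeobox gene, read 141 and 122 in WT and 1486 and 1346 in G1KO (3.43 ± 0.05), while its other probe gave 0.02. Tbx1, the T-box gene of the pharyngeal arches, read 130 and 119 in WT and 864 and 794 in G1KO (2.74 ± 0.01). Tbx3, a T-box gene of the limb margin, read 548 and 574 in WT and 3060 and 3097 in G1KO (2.46 ± 0.03).

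Lhx8, a LIM homeobox gene of the palate and tooth mesenchyme, read 79.5 and 50.5 in WT, below the background flag on both arrays, and 555 and 463 in G1KO, which is at least 7.56-fold higher. Lhx9 rose (2.63 ± 0.32), although its probes ranged down to 0.66. Pitx1, the hindlimb homeobox gene, rose from 2432 and 2853 to 12510 and 11600 (2.19 ± 0.24) and was below background in the second WT, at 62.9 and 65.3. Twist2, a bHLH factor of dermal mesenchyme, read 1001 and 1012 in WT and 3849 and 3848 in G1KO. The single fall was Dlx4, a distal-less gene (-1.80 ± 0.03). The second WT gave no common order, being above G1KO for Alx4 (4333 and 4474) and far below it for Pitx1.

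Trunk and visceral factors changed in both directions, with 3 rises and 3 falls among 26 tested of 45. Zic1, a zinc finger gene of neural tube and somites, fell from 2168 and 2648 to 57.4 and 85.6 (-5.10 ± 0.20), and its other probe gave -4.93. Gata3 fell (-1.36 ± 0.03), and Foxd1, a gene of kidney stroma, was at least 2.67-fold lower, since it was below background in G1KO. Of the Iroquois genes Irx1 (2.01 ± 0.24, other probe 0.66) and Irx2 (2.62 ± 0.07, other probes 0.49 to 2.30) rose, Irx5 was not called (0.30), and Osr1, a gene of intermediate and limb mesoderm, rose from 710 and 805 to 1898 and 2022. SOX factors gave 2 rises among 10 tested. Sox11, a factor of embryonic progenitors, read 304 on both arrays in WT and 2019 and 1898 in G1KO, with other probes from 0.40 to 2.76. Sox9, the cartilage regulator, read 773 and 680 in WT and 1751 and 1864 in G1KO.

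Hox genes, which record position along the body axis, are described by cluster. Of 39 listed 32 were tested, 8 rose and 6 fell, and 18 were not called. In cluster A the 3 genes that rose were Hoxa9, Hoxa10 and Hoxa11 at the posterior end. Hoxa11, at chr6:52171691-52171750, read 169 and 148 in WT and 2475 and 2261 in G1KO (3.90 ± 0.04). Hoxa10 read 580 and 522 in WT and 1564 and 1505 in G1KO (1.48 ± 0.07). Hoxa4, toward the anterior end, fell by 1.18 on the log2 scale, with a second Hoxa4 probe at -0.17.

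Cluster B had 2 rises, Hoxb9 (1.45 ± 0.13) and Hoxb8 (1.15 ± 0.11), among 8 tested. Cluster C had 3 rises among 8, which were Hoxc9 from 2394 and 2496 to 8795 and 10070, Hoxc6 from 1095 and 1217 to 4178 and 4282, and Hoxc10 (1.51 ± 0.04, with a second probe at 0.72). In cluster D none of the 6 tested genes was above 0 and 4 fell. Hoxd8 read 2789 and 2716 in WT and 402 and 415 in G1KO (-2.75 ± 0.06), Hoxd4 fell by 2.06, Hoxd9 by 1.53 and Hoxd3 by 1.21. Hoxc9, Hoxd8 and Hoxa11 were all below background in the second WT, where they read between 54.4 and 62.3. The median difference of the WT of the G1KO pair over the second WT was 2.18 over the Hox genes tested here.

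**Figure D3:**
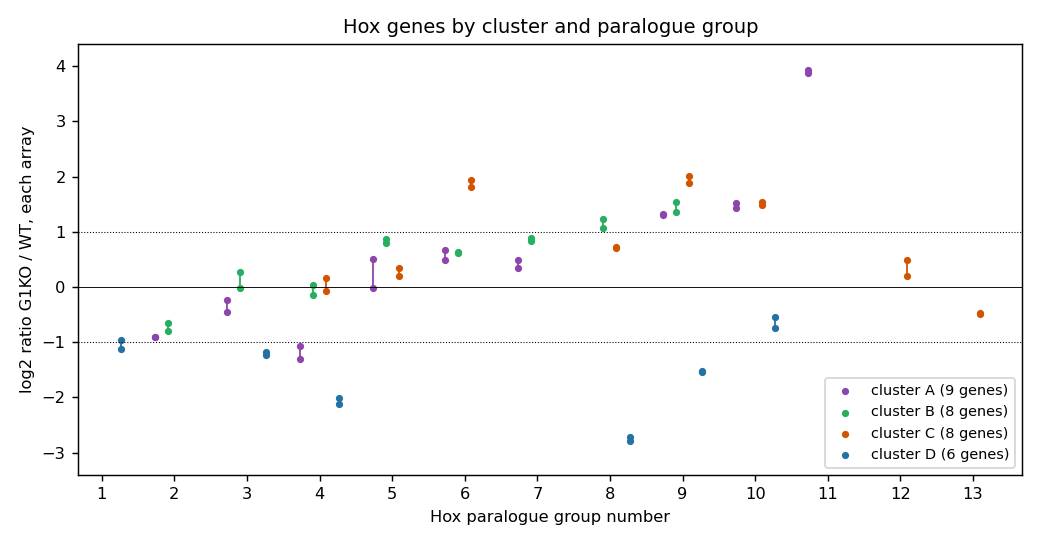
Log2 ratio of G1KO over WT on each array (2 joined points per gene) for 31 of the 32 Hox genes tested, by paralogue group number. Values of cluster A climb from below or near 0 in the low groups to above 1 in groups 9 to 11. Those of cluster B climb to above 1 at Hoxb8 and Hoxb9, whereas all 6 genes of cluster D lie below 0.

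Secreted signals were examined by family. In the Wnt pathway 6 of 43 tested genes rose and 6 fell, with a median of 0.10. All 4 ligands called fell, and these were Wnt9a from 3037 and 3405 to 485 and 450, Wnt11 from 912 and 1023 to 157 and 166, Wnt2 (-1.32 ± 0.03) and Wnt5b (-1.14 ± 0.09, second probe -0.39). Rspo1, an amplifier of Wnt signals that is also on the mesothelial list, read 5814 and 5604 in WT and 366 and 320 in G1KO. Among secreted antagonists Sfrp2 rose from 218 and 217 to 5701 and 5495 (4.68 ± 0.04), against 4683 and 4704 in the second WT, and Dkk2 and Sfrp1 rose (1.26 ± 0.08 and 1.26 ± 0.11), with a second Sfrp1 probe at 0.40. Sfrp4, another antagonist of the same family, fell from 3683 and 4128 to 184 and 209 (-4.31 ± 0.01). Apcdd1, a membrane inhibitor and target of the pathway, rose (1.77 ± 0.24, second probe 0.32), and so did Lef1, a transcription factor of the pathway (1.31 ± 0.16).

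FGF ligands that were called also fell. Fgf18, a ligand for bone and lung growth, read 9463 and 8510 in WT and 462 and 451 in G1KO (-4.30 ± 0.08). Fgf5, known for ending hair growth, read 7804 and 7684 in WT and 686 and 648 in G1KO (-3.54 ± 0.04). Fgf13 fell by 2.61, although its other probes gave -0.81 and -0.57. The remaining member called in this pathway was Dusp6, a feedback phosphatase of ERK signalling, which read 59130 and 55940 in WT and 25370 and 25670 in G1KO. None of the 5 receptors was called, and over the 25 genes tested the median was -0.06.

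In the BMP and TGF-beta pathway 5 of 51 tested genes rose and 5 fell. Gdf6, a BMP family ligand of joints and skull, read 6710 and 7936 in WT and 285 and 316 in G1KO (-4.60 ± 0.06), and Bmp4, a ligand used throughout the embryo, fell by 1.40. Of 12 antagonists tested 3 rose and 1 fell. Bambi, a decoy receptor gene, rose from 1045 and 1107 to 3268 and 3398 and Fst, the activin binder, from 6215 and 7387 to 16600 and 17970. Bmper, which can bind BMPs outside the cell, fell (-1.50 ± 0.06). None of the 12 receptors was called. Id1, a direct BMP target, read 19600 and 18770 in WT and 10830 and 10680 in G1KO and was not called, whereas Id4 rose (1.31 ± 0.02).

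Other pathways had fewer calls. In the Hedgehog pathway Hhip, a membrane antagonist and target, rose from 92.3 and 77.5 to 449 and 394, with a second probe at 0.77, and Gli2, a transcription factor of the pathway, rose (1.22 ± 0.13). In the Notch pathway Notch1 rose (1.46 ± 0.18) and Dlk1 rose. In the IGF axis the binding protein genes Igfbp2 and Igfbp4 fell, the first from 6232 and 6595 to 620 and 587, and Igf2r, the receptor that clears IGF2, rose (1.18). Among axon guidance genes 6 of 56 rose and 3 fell. Epha3, an ephrin receptor gene, rose from 101 and 65.0 to 805 and 654, and Sema3d, a semaphorin gene, fell from 1144 and 1271 to 146 and 176.

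**Figure D4:**
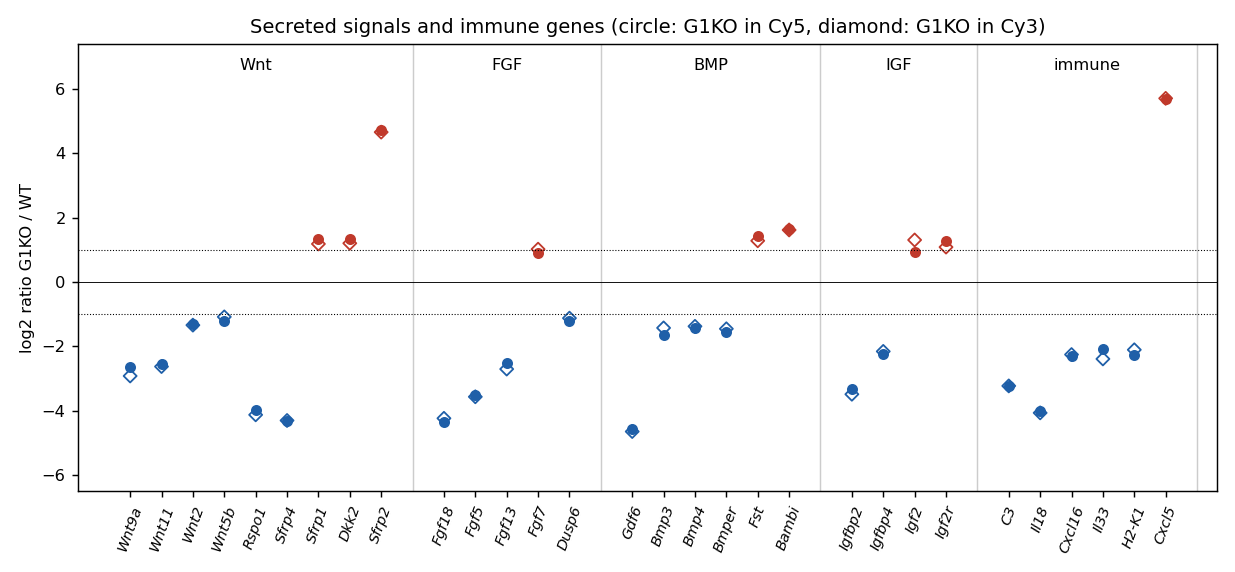
Log2 ratio of G1KO over WT for secreted signals, their antagonists and immune genes, red above and blue below 0, with circles for G1KO labelled with Cy5, diamonds for G1KO labelled with Cy3 and dotted lines at 1 and -1. The called Wnt and FGF ligands lie below -1, the antagonist Sfrp2 lies above 4, and Sfrp4 lies near -4.3.

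Imprinted genes, which are expressed from a single parental allele and include regulators of fetal growth, gave 6 rises and 3 falls among 32 tested. Plagl1, a zinc finger factor gene, rose from 220 and 186 to 1363 and 1173 (2.64 ± 0.02), although its other probe gave 0.34. H19, a maternally expressed noncoding RNA, read 229 and 239 in WT and 800 and 718 in G1KO, and both of its probes gave about the same ratio (1.70 ± 0.15 and 1.69). Dlk1 read 9227 and 12620 in WT and 32160 and 39680 in G1KO, and Cdkn1c, the p57 cell cycle inhibitor gene, rose (1.39 ± 0.29). Igf2, the paternally expressed neighbour of H19, read 1216 and 1121 in WT and 2308 and 2774 in G1KO and missed the threshold on the first array (1.11 ± 0.27). Dcn and Mest were among the falls of this list. Whether the listed genes were expressed from a single allele in these cultures was not measured.

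Matrix genes were counted by class. Among fibrillar collagens 2 of 11 rose and 0 fell, with a median of -0.36. Col11a1 rose from 851 and 879 to 2680 and 2374 and Col5a1 from 10710 and 11520 to 24520 and 27670, both chains that start fibrils, while Col3a1 was not called (-0.94 ± 0.01). Basement membrane collagens had 3 falls among 7, which were Col4a6 from 8971 and 9600 to 566 and 521, Col4a5 (-1.68 ± 0.00) and Col4a1 from 35810 and 35320 to 15040 and 14470. Their 1 rise was Col18a1 (1.91 ± 0.06). The probes of Col4a6 ranged from -4.09 to -0.82. Itgb4, the integrin chain of hemidesmosomes, fell from 5641 and 5894 to 603 and 539 (-3.34 ± 0.16, other probes -3.58 to -0.38).

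Small leucine-rich proteoglycans, which coat collagen fibrils, gave 3 rises and 1 fall among 10. Dcn, the gene of decorin, read 49800 and 45790 in WT and 3191 and 2609 in G1KO (-4.05 ± 0.12), with a second probe at -0.89. Aspn, the gene of asporin, read 192 on both arrays in WT and 679 and 639 in G1KO (1.78 ± 0.06). The second WT was lower than G1KO for Dcn (505 and 557) and higher than G1KO for Aspn (5127 and 5536). Among elastic fibre genes 5 of 23 rose and 4 fell. Fbn2, the embryonic fibrillin gene, rose from 347 and 389 to 1596 and 1517, and Lox, the crosslinking oxidase gene, fell from 16000 and 17790 to 6043 and 5272. Among proteases and their inhibitors 6 of 38 fell and 1 rose, with Timp3, an inhibitor of metalloproteases, at 112600 and 85100 in WT and 23590 and 17350 in G1KO, and Mmp13, a collagenase gene, at 788 and 861 in WT and 95.8 and 116 in G1KO.

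Genes of differentiated connective tissue were called less uniformly. In the cartilage and bone list 3 of 19 rose and 1 fell. Spp1, the gene of osteopontin, read 3979 and 6333 in WT and 59490 and 77450 in G1KO (3.76 ± 0.20), against 70380 and 65030 in the second WT, and Scx, the tendon factor gene, fell by 1.35. In the smooth muscle list 4 of 27 rose and 2 fell, and Acta2, the defining myofibroblast actin gene, was not called (140000 and 154700 in WT, 138400 and 133100 in G1KO). Cnn1, a contractile regulator, rose from 11930 and 14550 to 35610 and 43030, Tgfbi, a matricellular gene, rose by 2.69 ± 0.12, and Ccn2, a matricellular gene of high level, fell (-1.89 ± 0.38). In the adipogenic list Prdm16, a brown fat regulator, rose (2.34 ± 0.06) and Angptl4, a lipase inhibitor gene, fell (-1.78 ± 0.17).

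Immune genes were counted by family, beside 747 falls and 408 rises among all 16586 genes tested. Among chemokines and cytokines 6 of 30 fell and 3 rose. Il18, an interleukin of the IL-1 family made by epithelia and macrophages, read 3502 and 3695 in WT and 216 and 220 in G1KO (-4.04 ± 0.03). Cxcl16 and Il33 fell (-2.28 ± 0.04 and -2.24 ± 0.21), and Ccl20 was at least 4.98-fold lower, being below background in G1KO. Cxcl5, a neutrophil chemokine gene, went the other way, from 116 and 106 in WT to 6018 and 5521 in G1KO (5.70 ± 0.01), with 1700 and 2191 in the second WT. Among complement genes 6 of 16 fell and 2 rose. C3, the central component, read 1920 and 1987 in WT and 204 and 212 in G1KO (-3.23 ± 0.00), and Masp1, a lectin pathway protease gene, rose (1.66 ± 0.02, other probes 0.44 to 0.83).

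Class I MHC genes, which present peptides to T cells, had 5 falls among 18 tested and no rise. H2-K1 read 7445 and 6731 in WT and 1541 and 1563 in G1KO (-2.19 ± 0.12), and H2-D1 read 6007 and 5597 in WT and 1615 and 1647 in G1KO. The H2 genes are near-identical copies that can share probes, so single members are uncertain. Over 38 interferon-stimulated genes 2 fell and 2 rose, with a median of -0.34. Isg20, an exonuclease gene, fell (-1.65 ± 0.05), Ifi27 fell (-1.17 ± 0.00, other probe -3.45), and Socs1, a feedback inhibitor, rose (1.18 ± 0.07).

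Genes of metabolic and detoxifying enzymes included some of the largest falls. Of 17 listed aldo-keto reductase and pantetheinase genes 10 were tested, 3 fell, 0 rose and 7 were not called, with a median of -0.52. Over the processing settings that median ranged from -1.30 to -0.12. Vnn1, a pantetheinase gene, read 19070 and 18890 in WT and 542 and 461 in G1KO (-5.25 ± 0.15). Akr1c14, an aldo-keto reductase of steroid metabolism, read 5073 and 5050 in WT and 136 and 177 in G1KO (-5.03 ± 0.27), and its neighbour in the family Akr1c18 fell by 3.08. Ahr, the gene of the aryl hydrocarbon receptor, read 4828 and 5063 in WT and 240 and 254 in G1KO (-4.32 ± 0.01), against 412 and 377 in the second WT. The AHR target gene Cyp1b1 fell as well (-1.41 ± 0.33), as did the P450 gene Cyp2s1 from 22990 and 20970 to 1311 and 1342 (-4.05 ± 0.12). Among 35 NRF2 response genes 3 rose and 2 fell, and glutathione transferases went both ways. Gstm1 rose from 3764 and 4319 to 14330 and 16570 and Gsta1 by 2.12 ± 0.24, whereas the microsomal transferase gene Mgst1 fell (-1.39 ± 0.05). In the hypoxia list Bnip3 and Adm rose (1.96 ± 0.19 and 1.82 ± 0.29), and the glucose transporter gene Slc2a3 fell (-2.57 ± 0.21, second probe -0.26). Abca1, the cholesterol exporter, was the only one of 29 cholesterol genes called (-2.01 ± 0.14), and the 20 enzymes of synthesis ranged from -0.31 to 0.71.

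Neuronal and glial genes were examined because neural and Schwann cells can be carried into MEF cultures. Of 39 listed neuronal genes 23 were tested, 5 rose and 4 fell. The neuronal genes Elavl3, Stmn2, Snap25 and Dcx were not well above background on both arrays in either culture, nor were the glial genes Sox10, Gfap and Cdh19. Elavl2, a neuronal RNA binding protein gene, read 91.6 and 63.5 in WT and 2587 and 2096 in G1KO (4.93 ± 0.16), though its other probe gave 0.99, and Penk, the enkephalin precursor gene, rose (3.41 ± 0.12, other probe 1.25). Of 27 listed crest and glial genes 16 were tested, 3 rose and 2 fell. Slc1a3, a glutamate transporter gene, rose (3.12 ± 0.07, other probes 0.35 to 1.51), as did S100b (2.60 ± 0.19) and the membrane glycoprotein gene Gpm6b (2.25 ± 0.04). Mbp, a myelin gene with transcripts outside glia, fell (-2.40 ± 0.22, other probes -1.84 to -0.23), and so did Erbb3, a neuregulin receptor gene of Schwann cells and epithelia (-1.28 ± 0.17).

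Genes closest to the known work of cyclin G1 are p53 targets and PP2A subunits. Of 40 tested p53 targets 8 fell, Ccng1 itself included, and 0 rose, with a median of -0.45 and 6 of 40 above 0. Perp, a desmosomal and apoptotic target, read 9567 and 9438 in WT and 1687 and 1843 in G1KO (-2.43 ± 0.10), and Cd82 and Fas fell by 1.84 and 1.79. Cdkn1a, the p21 gene and the classic arrest target, was not called, at 5377 and 5434 in WT and 3055 and 3296 in G1KO (-0.77 ± 0.07), nor was Mdm2 (-0.92 ± 0.13). Trp53 itself read 1865 and 1910 in WT and 1737 and 1738 in G1KO. In the second WT Cdkn1a read 924 and 1079 and Mdm2 2442 and 2514, both below G1KO, and the median difference of the WT of the G1KO pair over the second WT was 0.97 over these targets.

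Of 18 PP2A subunit genes 1 was called. Ppp2r5b, a B' subunit gene, read 19880 and 16630 in WT and 2835 and 3080 in G1KO (-2.62 ± 0.27), against 3853 and 3337 in the second WT. The other B' subunit genes Ppp2r5a, Ppp2r5c, Ppp2r5d and Ppp2r5e gave between -0.43 and 0.24, and the catalytic subunit gene Ppp2ca gave 0.23 ± 0.10.

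Cell cycle and housekeeping genes showed few calls. Among 24 cyclin and CDK inhibitor genes Ccnd1 rose from 5852 and 6292 to 12840 and 13800 (1.13 ± 0.00), Cdkn1c rose as above and Cdkn2b, the p15 gene, fell (-1.34 ± 0.10). None of 39 replication genes was called, although 34 lay above 0 with a median of 0.28, and Pola1, a primase partner, gave 0.92 ± 0.01. None of 55 mitosis genes, 37 DNA damage and repair genes or 15 housekeeping genes was called. The 69 cytosolic ribosomal protein genes ranged from -0.68 to 0.31 and the 70 respiratory chain genes from -0.62 to 0.36, with no call in either.

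**Figure D5:**
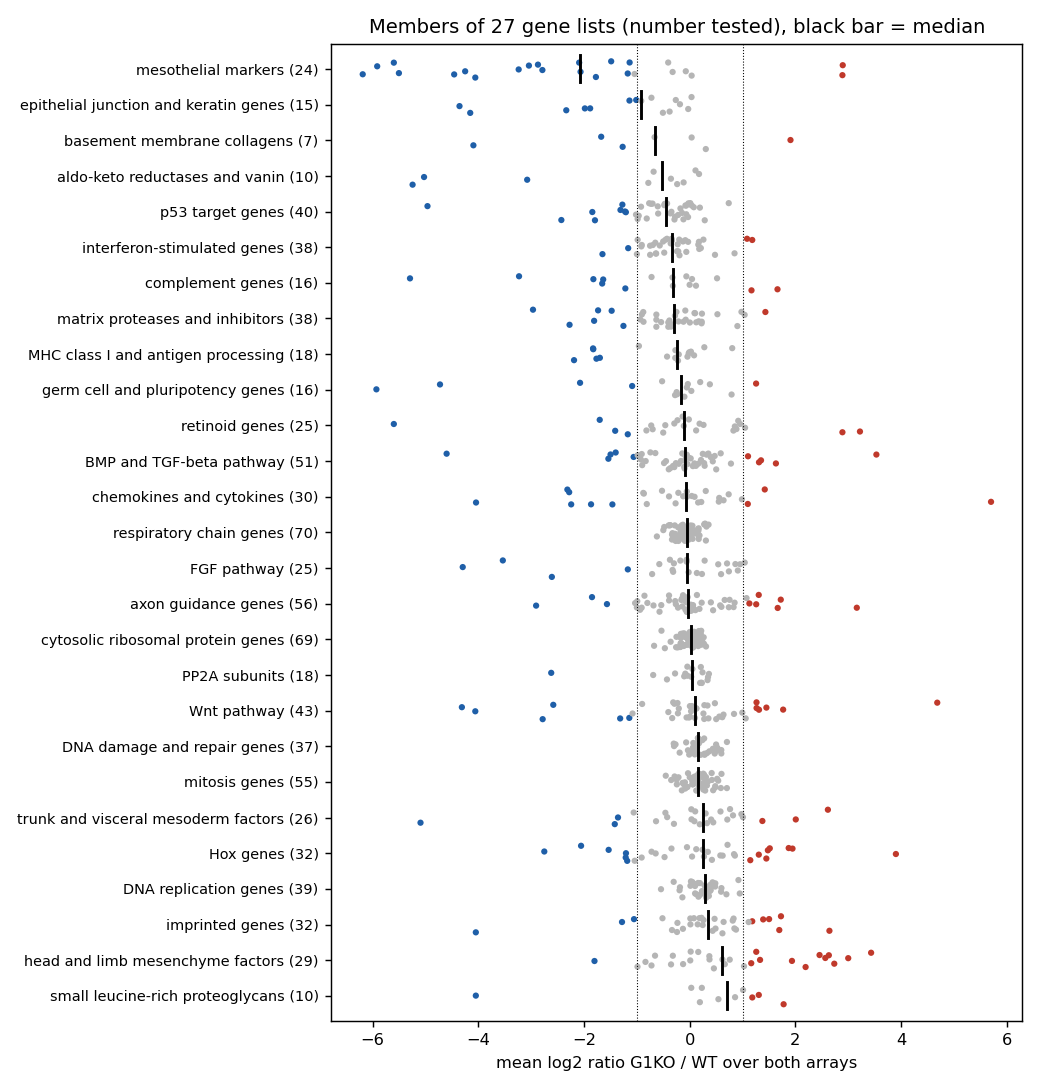
Mean log2 ratio of G1KO over WT of each tested member of 27 gene lists (points, red called higher, blue called lower, grey not called) with the list median as a bar. Mesothelial markers reach down to -6.19 with a median of -2.08, whereas ribosomal, respiratory chain, mitosis and repair genes stay between the dotted lines at -1 and 1.

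Genes near the targeted locus were examined for effects of the cassette or of flanking DNA. Of 25 tested genes within 5 Mb of Ccng1, 1 rose and 1 fell, with a median of 0.005. The closest neighbours Nudcd2, Hmmr and Mat2b were not called, at -0.01, -0.29 and -0.54. Ccnjl, a cyclin J-like gene, rose (1.16 ± 0.08), from 84.9 and 78.7 in WT to 182 and 183 in G1KO.

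Outside the lists, the largest rises after Xist with both genotypes above background were Diaph2, Plppr4, Pcdh17 and Itm2a. Diaph2, an X-linked formin gene, gave 4.64 ± 0.10 (other probes 1.92 to 2.60), and Plppr4, a neuronal membrane protein gene, gave 3.93 ± 0.10. The protocadherin gene Pcdh17 gave 3.79 ± 0.29, with other probes from 0.66 to 2.93. Itm2a, an X-linked membrane protein gene of cartilage and muscle, read 143 and 114 in WT and 1662 and 1593 in G1KO. The protease gene Ctsc rose from 104 and 94.4 to 997 and 848, and Slc5a7, the choline transporter of cholinergic neurons, from 316 and 311 to 3216 and 3172. The falls included Cemip, a hyaluronan-degrading protein gene, from 23580 and 22210 to 960 and 750 (-4.75 ± 0.19, other probes -5.25 to -1.02). Rhpn2 (-4.42 ± 0.00) and the GABA receptor gene Gabra4 (-4.36 ± 0.08) also fell. Bst1, a stromal cell ectoenzyme gene, fell from 10050 and 10990 to 590 and 519, and Mst1r, a receptor tyrosine kinase gene of epithelia, from 7389 and 7491 to 455 and 413. In the second WT Bst1 and Mst1r read 98.4 to 129, below both cultures of the G1KO pair, whereas Cemip, at 5584 and 5343, lay between them.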

How the data were processed

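Total RNA was amplified into labelled cRNA and hybridised to Agilent 2-colour mouse arrays. The deposited intensity values are the mean brightness of each spot and the median background around it, unnormalised. The authors quantified them with Agilent Feature Extraction (10.5.1.1 per the file headers, 9.1 per the submitters' processing notes). The deposited log10 ratios of the software and of the series table served as alternatives. The p-values the software gives for its ratios were not used.

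Intensities were background-corrected by normexp (offset 50, fitted on all spots) and normalised by loess within each array in limma 3.58.1 (R 4.3.3), without control spots and the 117 and 203 outlier spots of the 2 arrays. No spot was saturated. Spots of a probe were averaged, ratios turned to G1KO over WT and averaged over both arrays. Levels come from Aquantile normalisation across all 4 arrays. Where a genotype was below the flag on both arrays, a bound in fold is given against the lowest signal well above background, open to dye bias. Of the 41174 probes, 24375 were named through RefSeq (GRCm38.p6) by accession, 6301 by symbol, 2426 by an older symbol, and 8072 kept the file's name. Positions of probes are those of the array design (mm8), and the exon a probe lies in was not analysed here. The procedure was tested on simulated ratios.

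The comparison, its members and the 53 gene lists were chosen with earlier results of these data known. Of each list the called members with the 4 largest rises and falls were named first, with bright members, then others where a role was empty, some of them after their values were seen. Outside the lists the 10 largest rises and falls qualified, and called genes within 5 Mb of Ccng1. The number of arrays limits the precision. Settings varied were the background correction, normalisation, filter, array, probe rule and threshold. Some genes that entered the counts are not reported here by name.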

Additional observations from a re-analysis of the deposited data

How the results depend on the processing

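No call here has a biological replicate, so every alternative below tests the processing alone. The number of probes called higher and lower, 509 and 970 of 1479, rose to 1245 and 1605 of 2850 with the scanner software's own log ratio and to 1242 and 1602 of 2844 with the authors' series table, while an offset of 16 in place of 50 gave 1863, and the cause was not tested. It fell to 295 and 518 of 813 with median centring in place of loess, and to 97 and 288 of 385 at 4-fold on each array. The number of lists with a median of at least 0.5 in size, 7 here, was 12 with the scanner's ratio, 12 with the series table and 1 without a filter on background. The number of called genes within 5 Mb of Ccng1, 2 here, was 4 with the scanner's ratio, 4 with the series table and 0 where both genotypes had to be above background, and these alternatives were chosen after seeing the data. The median of the red cell markers, from 2 tested genes, turned to -0.015 without the filter, which admits genes with no signal, and no other list median of at least 0.5 changed sign. Of the 231 called genes for which the alternatives were run 0 changed sign, but 87 moved by over 1.5 times in fold, among them genes dim in one genotype: Elavl2 ranged from 2.96 to 7.72 on the log2 scale, Epha3 from 2.09 to 5.40, Alx4 from 1.73 to 4.47 and Rpl39l from -6.88 to -2.82. Probes past 2-fold between both WT cultures numbered 2854 with quantile normalisation. Each ratio already compares both cultures on the same array. No analysis across biological replicates was possible because each genotype was 1 culture.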

Other observations

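The 2 knockout pairs delete different genes and have separate WT cultures. Of all genes tested in the G1KO pair, 2.40% were called higher and 4.67% lower in the G2KO pair. Of the 408 genes called higher in G1KO, 42 were also called higher in G2KO MEFs (10.3% of the former list, 10.6% of the latter) and 111 were called lower there (27.2% and 14.3%). Of the 747 genes called lower in G1KO, 112 were also called lower in G2KO (15.0% and 14.5%) and 66 were called higher (8.84% and 16.6%). Among genes that rose in G1KO and were called lower in G2KO were Aspn (-5.75 in the G2KO pair), Col11a1 (-5.23), Cxcl5 (-4.65), Sfrp2 (-4.50), Alx4 (-4.36) and Crabp1 (-2.45), all of which were brighter in the WT of the G2KO pair than in that of the G1KO pair. Igfbp2, Fgf5 and Lox fell in both pairs, at -3.70, -4.03 and -5.05 in G2KO. Xist was called higher in G2KO as well, at 7.24, with 112.5 and 74.3 in the WT of that pair. The paper attributes the higher Xist of G2KO MEFs to female origin too, and the part of sex in the overlap was not tested. The named genes were chosen after their values were seen, and the difference between the pairs was not tested. What the cultures, their sex and the genotypes contribute cannot be told apart.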
